A study of Mus musculus with 9 samples.

Results

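The comparison described here sets both laser-captured regions of mouse liver together against whole liver tissue scraped from the slide. Its members are all 9 of the 9 arrays in the series, 6 captured and 3 scraped. PV was captured from the perivenous subcompartment defined by glutamine synthetase, where hepatocytes border the central vein. The NPV samples were captured from zones 1+2 of the acinus, and SC was the entire tissue scraped off a slide. Each kind of sample has 3 arrays, numbered 1 to 3, and the 3 arrays of a number are called a set. In each set the mean log2 level of PV and NPV was taken minus the level of SC, and the 3 set differences were averaged. A positive value is a higher level in the captured regions, and PV and NPV carry equal weight in it whatever their share of the liver.

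All samples were mouse liver fixed on a glass slide, with RNA extracted by Tri-reagent and labelled with Cy3 for Illumina bead arrays. The sources used here do not give strain, sex, age, treatment, the number of mice or how captured cells were recognised. No label ties a sample to an animal, so the p-values reflect the spread among these arrays alone, and that spread may be technical.

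The liver lobule is a plate of hepatocytes between portal tracts and a central vein. Hepatocytes make most plasma proteins, and their enzymes are graded along the plate, with ammonia detoxified to urea near the portal tract and to glutamine beside the central vein. Between the plates run sinusoids lined by a fenestrated endothelium, with Kupffer cells, the resident macrophages, on the blood side and vitamin A-storing stellate cells behind it. Bile ducts, larger vessels with smooth muscle, fibroblasts and nerves lie mainly in the portal tracts, and a mesothelial capsule covers the organ. Laser capture lifts chosen cells out of such a section, and a scrape takes everything on the slide. The question of the comparison is which cells and tissue parts capture left out or added.

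Of 45281 probes, 16819 to 18721 (37.1% to 41.3%) were detected per array at a detection p-value under 0.05. Probes detected on at least 3 of the 9 arrays represented 13532 genes. Set 3 stood apart: across genes, which are not independent replicates, its arrays correlated with those of the other sets at r = 0.944 to 0.959, against 0.981 to 0.992 among sets 1 and 2. Results that rest on 1 set are therefore given with the values of each set. Levels are log2 of background-corrected intensity, and a difference of 1 on this scale is 2-fold.

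No gene passed the test between the captured regions and the scrape. By limma's moderated test with the set as a block, 0 genes were higher and 0 lower at an adjusted p under 0.05 (0% of 13532 in each direction), and the smallest adjusted p was 0.954. At an unadjusted p under 0.05 there were 315 higher and 337 lower genes, 4.82% of those tested. The p-values were spread evenly, with 634 to 730 genes in each of 20 equal bins. Without set 3 the counts were also 0 and 0, with 496 higher and 476 lower at an unadjusted p under 0.05. All 6 captured arrays lay above all 3 scrape arrays for 35 genes (0.259%) and below them for 47 genes (0.347%). In the same fit PV differed from NPV for 43 genes (0.318%).

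**Figure D1:**
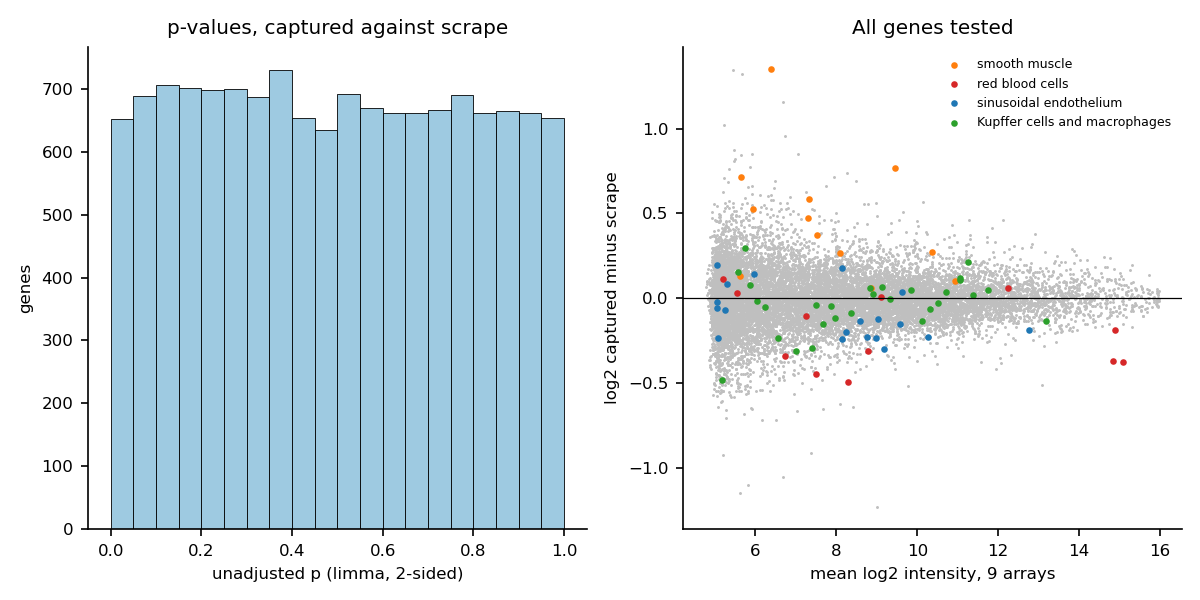
Left, number of genes (vertical) by unadjusted 2-sided p from limma (horizontal, 20 bins) for captured regions against scrape. Right, the log2 difference of captured minus scrape (vertical) against the mean log2 intensity over 9 arrays (horizontal), 1 point per gene, with 4 marker lists in colour. The bins hold 634 to 730 genes each, and 9 of 13532 genes lie beyond 1 in either direction.

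The test also bounds how far the readings of most genes could differ. The 95% interval of the difference lay within 2-fold either way for 99% of genes and reached beyond it for 136 (1.01%). For 99.6% of genes the interval excluded a level 2-fold lower in the captured regions. These intervals are on the background-corrected scale, where an offset of 16 draws the differences of dim genes toward 0, and the brightest probes are close to the top of the scale. For genes near the lowest detected level a 2-fold lower reading could hardly occur, so no conclusion is drawn from their intervals. Precision is limited by the number of arrays.

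The median absolute log2 difference was 0.091 between captured regions and scrape, 0.12 between PV and NPV, 0.18 between set 1 and set 2, and 0.31 between set 3 and the mean of sets 1 and 2. More than 2-fold differences were found in 9 genes between captured regions and scrape, in 86 between PV and NPV, and in 1465 between set 3 and the others. These contrasts average different numbers of arrays, and opposite shifts of PV and NPV cancel in the captured mean. Their sizes are therefore not like for like.

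Hepatocyte genes came first, since both captures were aimed at hepatocyte zones. The list of hepatocyte identity genes (transcription factors, receptors and junction proteins) had 20 of 22 genes measured, with 0 passing the test in either direction, a median difference of -0.00055 and a range of -0.17 to 0.35. Over all genes tested the median was -0.0060. Hnf4a, the nuclear receptor that maintains hepatocyte identity, read 13.71, 13.54 and 12.97 in PV, 13.70, 13.73 and 13.34 in NPV and 13.62, 13.84 and 13.36 in SC (sets 1 to 3). The 3 kinds of sample overlapped throughout, and the captured level was 0.932 of the scrape level (95% interval 0.782 to 1.11). Among the secreted plasma proteins, 34 of 35 genes were measured, 0 passed and the median was -0.016. Ttr, which carries thyroid hormone and retinol-binding protein, was between 15.85 and 15.99 on each of the 9 arrays, near the ceiling of the scale. Alb has a single, dim probe here (7.60 to 8.87), and no statement on albumin is drawn from it.

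Genes of the hepatocytes beside the central vein had a median a little above the scrape. Of 26 such genes 23 were measured, 0 passed, and the median was 0.27, with medians of 0.31, 0.19 and 0.15 in sets 1 to 3. Against SC the list's median was 1.05 in PV and -0.37 in NPV. An unadjusted p under 0.05 was reached by 10 of the 23, all higher, and on the higher side by 315 of 13532 genes. PV has the same weight as NPV whatever its share of the liver, so this list's position is no support for a gain by capture. Glul, which encodes glutamine synthetase and names the PV compartment, read 13.73, 12.81 and 12.88 in PV, 11.09, 10.94 and 10.48 in NPV and 11.58, 11.70 and 11.44 in SC. PV lay above SC and NPV below it in every set, and the captured mean was 0.42 above SC (SE 0.17, adjusted p = 0.972). Gstm3, a glutathione transferase, read 8.88, 8.32 and 9.36 in PV, 7.40, 7.43 and 7.64 in NPV and 7.03, 7.28 and 8.06 in SC. Its captured mean was 0.71 above SC (SE 0.17, adjusted p = 0.954), with PV above every SC array and NPV among them.

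Genes of the periportal hepatocytes did not stand apart from the scrape when both captures were averaged. Of 26 genes 24 were measured, 0 passed, the median was -0.030, and all 24 intervals lay within 2-fold, as did 99% over all genes. The medians of PV and NPV against SC were -0.23 and 0.19. Cyp2f2, a periportal cytochrome P450, read 14.66, 14.92 and 14.64 in PV, 15.30, 15.19 and 15.42 in NPV and 15.22, 15.27 and 15.04 in SC, so PV was below SC in every set. Hal, which starts the breakdown of histidine, had a captured level 0.881 of the scrape level (95% interval 0.719 to 1.08).

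Markers of other cells were also present on the captured arrays. Defining markers of sinusoidal endothelium (Stab2, Clec4g and Lyve1), of Kupffer cells (Clec4f, Vsig4 and Adgre1) and of red cells (Hba-a1, Hbb-b1 and Alas2) were detected on all 6 captured and all 3 scrape arrays. In such bulk samples, fewer cells of a type and less RNA per cell cannot be told apart.

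**Figure D2:**
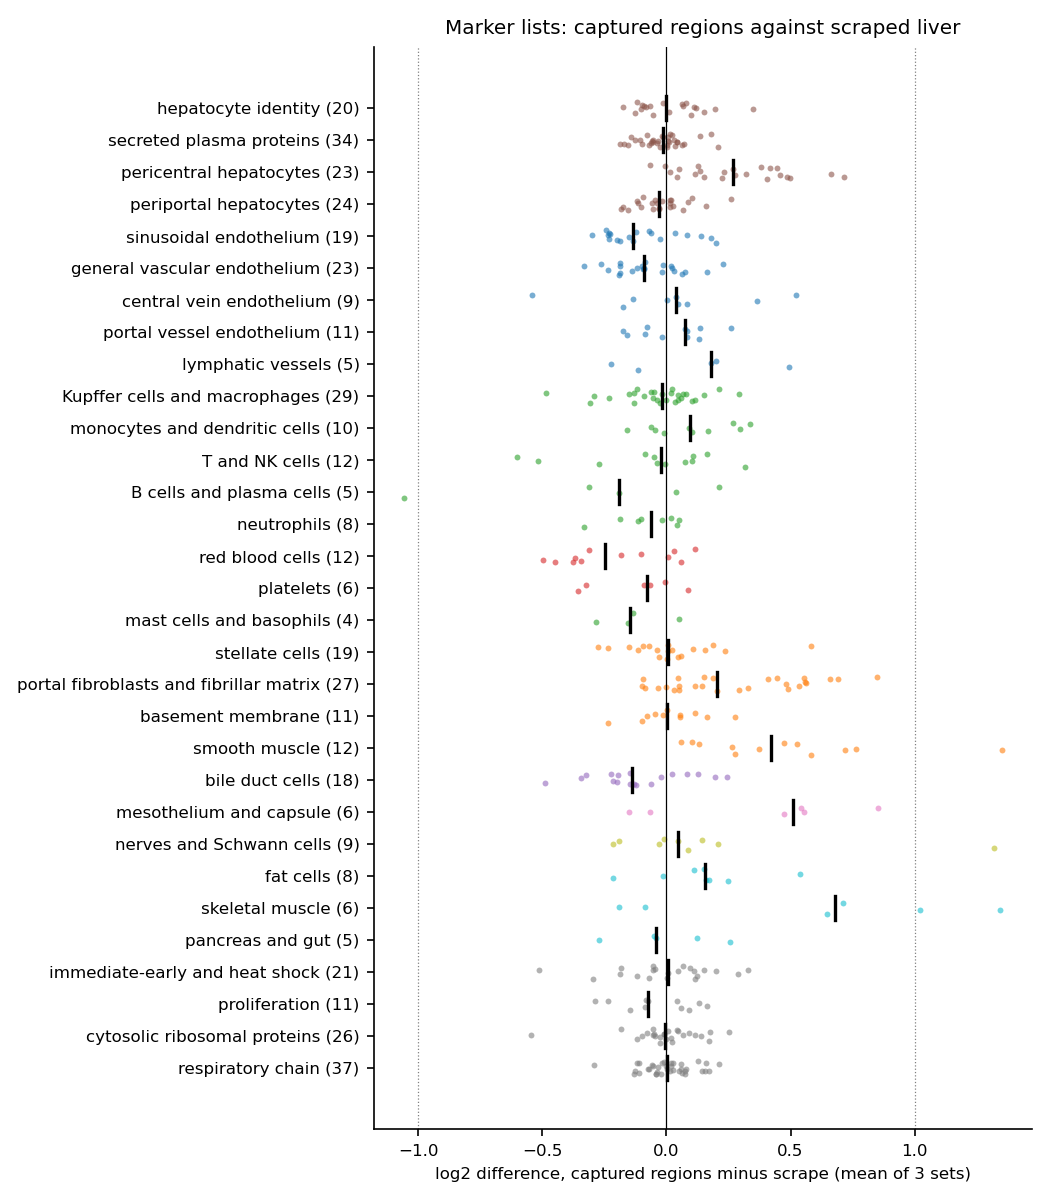
Log2 difference of captured regions minus scrape (horizontal, mean of 3 sets) for each measured gene of 31 lists (1 point per gene, number of measured genes in brackets), with the list median as a bar and 2-fold marked by dotted lines. Hepatocyte identity, Kupffer cell and ribosomal lists centre near 0, red cells lie to the left (-0.25) and pericentral hepatocytes to the right (0.27). Smooth muscle (0.42) and skeletal muscle (0.68) lie to the right with wide scatter. Some skeletal muscle genes passed the detection filter only through captured arrays.

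Sinusoidal endothelial genes lay slightly below the scrape. Of 23 genes 19 were measured, 0 passed and the median was -0.13, with medians of -0.059, -0.17 and -0.33 in sets 1 to 3 and -0.10 without set 3. All 19 intervals lay within 2-fold, as did 99% over all genes, and 12 of the 19 genes were detected on all 9 arrays. Below 0 were 14 of the 19 differences, against 7022 of 13532 over all genes. Lower in 3 of 3 sets were 5 genes, as were 13.1% of all genes. The summed intensity of the list was 11490 to 13490 in PV, 10510 to 14930 in NPV and 13360 to 15420 in SC. Stab2, a scavenger receptor that clears hyaluronan, read 9.27, 8.97 and 9.18 in PV, 9.27, 8.82 and 9.02 in NPV and 9.58, 9.30 and 9.29 in SC. Every captured array was below every scrape array, as for 0.347% of all genes, but the highest captured reading was 9.27 and the lowest scrape reading 9.29. The captured mean was 0.30 lower (SE 0.10, adjusted p = 0.954), which is 0.812 of the scrape level (95% interval 0.698 to 0.945). Clec4g, a lectin of the sinusoidal lining, was 0.19 lower with overlapping arrays. Lyve1, a hyaluronan receptor, read 8.43, 9.44 and 6.83 in PV, 8.98, 9.62 and 5.97 in NPV and 8.80, 9.77 and 5.52 in SC. It separated the sets and not the kinds of sample, with set 3 low in all of them.

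The other vessel lists showed no common direction. General endothelial genes (23 of 26 measured) had a median of -0.091, which became 0.00039 without set 3, and portal vessel genes (11 of 14 measured) had a median of 0.075. Lymphatic genes (5 of 8 measured) had a median of 0.18, with -0.059 and -0.026 in sets 1 and 2 against 0.58 in set 3. Cdh5, the adherens junction cadherin of endothelium, was 0.19 lower (SE 0.10, adjusted p = 0.972). Central vein endothelium (9 of 10 measured) had a median of 0.039, made up of 0.57 in PV and -0.51 in NPV. None of these genes passed the test. Rspo3, a ligand that strengthens Wnt signalling around the central vein, read 6.99, 6.39 and 6.14 in PV, 5.92, 4.90 and 5.20 in NPV and 6.42, 6.53 and 6.45 in SC. NPV was below SC in every set and PV on both sides of it, and the captured mean was 0.54 lower (SE 0.18, adjusted p = 0.954). Cdh13, an anchored cadherin, read 7.18, 6.72 and 5.87 in PV, 5.03, 5.37 and 4.88 in NPV and 5.92, 5.96 and 5.51 in SC. Its PV level was above the scrape and its NPV level below it in each set, and the captured mean differed from the scrape by 0.05 (SE 0.18).

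Kupffer cell genes had a median close to that of the scrape. Of 31 genes 29 were measured, 0 passed, and the median was -0.016, with 16 of the 29 differences below 0. Over all genes 7022 of 13532 differences were below 0. The interval lay within 2-fold for 28 of the 29 Kupffer cell genes and for 99% of all genes. Clec4f, a galactose receptor found on Kupffer cells in rodents, read 10.69, 9.88 and 10.09 in PV, 10.91, 10.62 and 9.62 in NPV and 10.81, 10.80 and 9.47 in SC. Captured arrays were level with the scrape in set 1, below it in set 2 and above it in set 3. The captured level of Clec4f was 0.958 of the scrape level (95% interval 0.679 to 1.35), and its other probe gave a log2 difference of -0.27. Vsig4, a complement receptor, was 0.13 lower (SE 0.18) and Adgre1, the F4/80 antigen, 0.05 higher (SE 0.22). The list's median was -0.13 without the PV array of set 3 and 0.075 without the NPV array of set 3. Its summed intensity was 30450 to 33540 in PV, 25440 to 39590 in NPV and 28200 to 38100 in SC.

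Genes of other leukocytes were dim, and fewer of them could be measured. Monocyte and dendritic cell genes (10 of 20 measured) had a median of 0.096, T and NK cell genes (12 of 25) -0.023, neutrophil genes (8 of 16) -0.061, mast cell and basophil genes (4 of 10) -0.15, and B and plasma cell genes (5 of 16) -0.19. None passed the test. Cd74, the chaperone of class II antigen presentation, was 0.30 higher (SE 0.11, adjusted p = 0.972) and higher in 3 of 3 sets, as were 10.3% of all genes. S100a9, a neutrophil protein, read 7.68, 9.20 and 4.93 in PV, 7.31, 9.29 and 5.11 in NPV and 7.49, 9.56 and 5.72 in SC, so the sets spanned a far wider range than the kinds of sample.

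Lck, the kinase of the T cell receptor, read 5.22, 5.07 and 5.28 in PV, 4.81, 4.85 and 4.68 in NPV and 5.71, 5.53 and 5.52 in SC. All captured arrays lay below all scrape arrays, as for 0.347% of all genes, by 0.60 on average (SE 0.10, adjusted p = 0.954). It was detected on 2 of 6 captured arrays and all 3 scrape arrays, and these levels are close to the lowest detected ones, 5.05 to 5.27 per array. Lck therefore needed scrape arrays to pass the detection filter, and its separation of arrays is no support for a difference. Cd3e and Cd3d, subunits of the same receptor complex, differed by -0.05 and -0.27 with overlapping arrays. Ighm, the heavy chain of IgM, read 7.80, 6.57 and 5.64 in PV, 5.89, 6.41 and 5.65 in NPV and 7.16, 6.83 and 8.16 in SC. Its difference of -1.06 (SE 0.45, adjusted p = 0.972) rested on the scrape array of set 3, with -0.31, -0.35 and -2.51 in sets 1 to 3. Iglv1, an immunoglobulin light chain gene, had -0.25, -0.93 and -2.26, with the same scrape array the highest at 7.87.

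Red cell genes had a median below the scrape in each set. Of 23 genes 12 were measured, 0 passed, and the median was -0.25, with medians of -0.16, -0.15 and -0.37 in sets 1 to 3 and -0.11 without set 3. All 12 intervals lay within 2-fold, as did 99% over all genes. Against SC the median was -0.26 in PV and -0.32 in NPV, and 6 genes were lower in 3 of 3 sets (13.1% of all genes were). Of these 6 genes 3 were beta globins. An unadjusted p under 0.05 was reached by 4 of the 12, all lower, and on the lower side by 337 of 13532 genes. Hbb-b1, an adult beta globin, read 15.32, 15.11 and 14.45 in PV, 15.39, 15.10 and 14.43 in NPV and 15.60, 15.59 and 14.84 in SC. Both captures were below the scrape in every set, although the arrays of different sets overlapped. The captured level was 0.771 of the scrape level (SE 0.10 on the log2 scale, 95% interval 0.662 to 0.897, adjusted p = 0.954), and its other probes gave -0.49 to -0.35. Hbb-bt differed by -0.37 and Hbb-b2 by -0.50, and the beta globin genes are near-identical and their probes may share signal.

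Hba-a1, an alpha globin, was 0.19 lower (SE 0.12), with -0.19, 0.07 and -0.43 in the sets. Alas2, which makes haem in erythroid cells, was 0.06 higher (SE 0.11), so the members of the list did not all lie on the same side. The summed intensity of the list was 70090 to 115200 in PV, 71170 to 130100 in NPV and 96090 to 142500 in SC. Platelet genes (6 of 12 measured) had a median of -0.079, with Pf4, a platelet chemokine, 0.07 lower (SE 0.17).

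**Figure D3:**
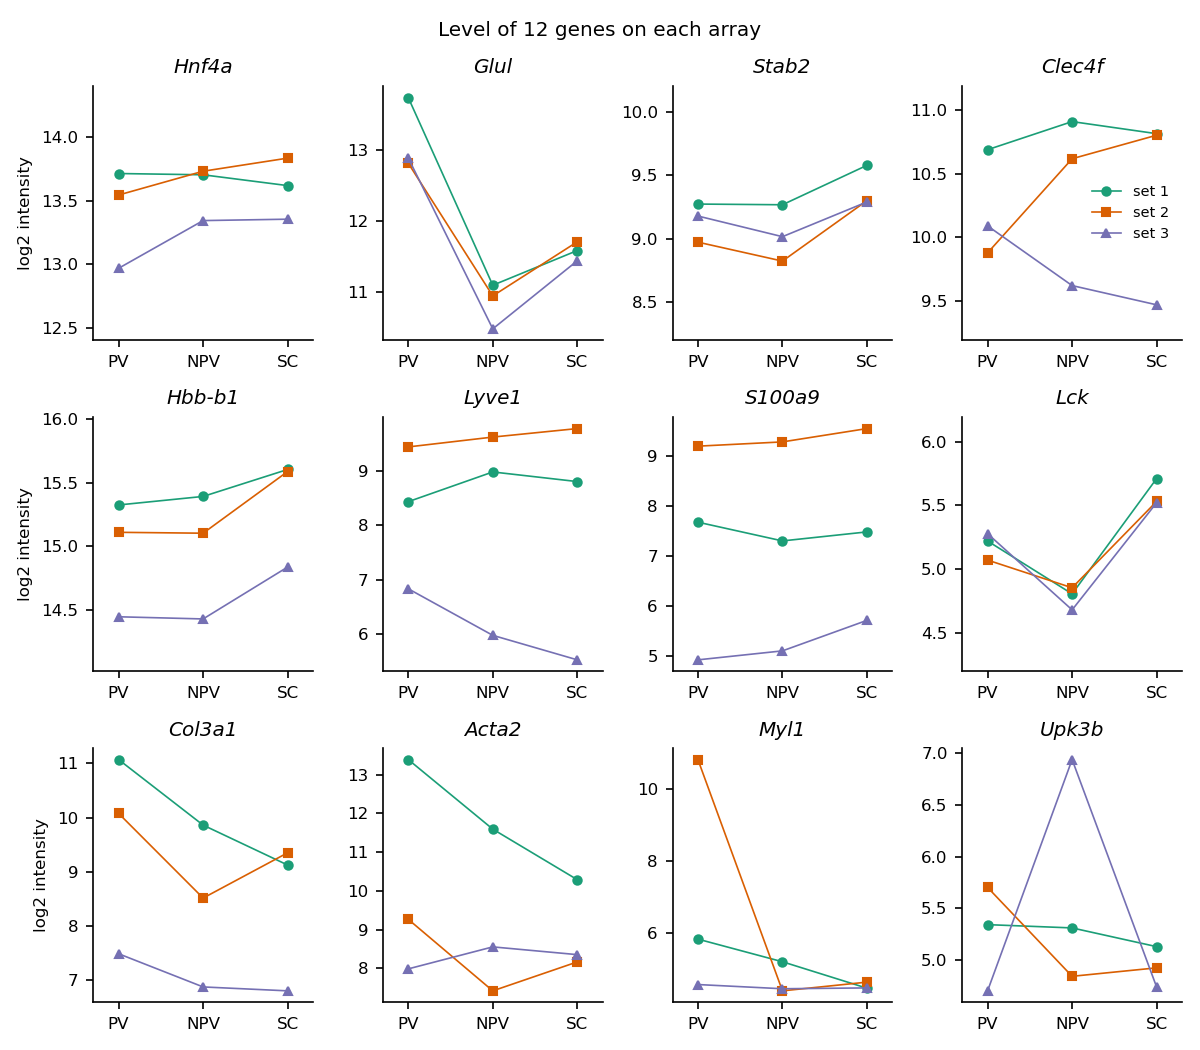
Log2 intensity (vertical, a separate scale in each panel) of 12 genes on each array, by kind of sample (horizontal, PV, NPV and SC), with a colour and symbol for each set and lines joining arrays of a set. Stab2 and Lck are lower on every captured array than on every scrape array, as are 0.347% of all genes. Hbb-b1 is lower within each set, and Lyve1 and S100a9 separate by set. The highest array is PV of set 1 for Acta2, PV of set 2 for Myl1 and NPV of set 3 for Upk3b.

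Of 23 stellate cell genes 19 were measured, 0 passed and the median was 0.0046, with 18 intervals within 2-fold. Lrat, which esterifies retinol for storage, read 7.37, 8.06 and 5.51 in PV, 7.58, 8.02 and 5.61 in NPV and 7.59, 8.23 and 5.71 in SC. It was below the scrape in each set by 0.11 to 0.19 (mean -0.15, SE 0.09). Basement membrane genes (11 of 13 measured) had a median of 0.0024 and all 11 intervals within 2-fold, and 6 of the 11 were detected on all 9 arrays. Over all genes 99% of intervals lay within 2-fold.

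Genes of portal fibroblasts and fibrillar matrix had a median above the scrape in PV and close to it in NPV. On this list 27 of 35 genes were measured, 0 passed, and the median was 0.20, with 0.52, 0.24 and 0.039 in sets 1 to 3. The median was 0.58 in PV and -0.0087 in NPV, and it was 0.025 without set 1 and 0.43 without the PV array of set 3. The interval reached beyond 2-fold for 9 of the 27 and for 1.01% of all genes. Of the 27 genes 17 were detected on all 9 arrays. Col1a1 was detected on 3 captured and 1 scrape arrays, so it needed captured arrays to pass the filter. With no detection filter the captured median was 0.14 over 35 genes. Col3a1, a fibrillar collagen of soft tissue, read 11.07, 10.08 and 7.48 in PV, 9.86, 8.51 and 6.87 in NPV and 9.12, 9.35 and 6.80 in SC. PV was above the scrape in every set and NPV on both sides of it (captured mean 0.56 higher, SE 0.25, adjusted p = 0.972). Col6a1, a chain of beaded-filament collagen, read 9.01, 8.71 and 7.19 in PV, 8.26, 7.46 and 7.10 in NPV and 7.94, 7.09 and 6.86 in SC. Both captures were above the scrape in every set, by 0.66 on average (SE 0.19, adjusted p = 0.954), and its other probe gave 0.72.

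Smooth muscle genes had a median above the scrape that was largest in set 1. Of 17 genes 12 were measured, 0 passed, and 0 of the 12 differences were below 0, as were 7022 of 13532 over all genes. The median was 0.42, with 1.01, 0.19 and 0.052 in sets 1 to 3. The median was 0.68 in PV and 0.22 in NPV. Of the 12 genes 8 were detected on all 9 arrays. Actg2 was detected on 5 captured and 1 scrape arrays and Myh11 on 2 and 1, so both needed captured arrays to pass the filter. With no detection filter the captured median over 17 genes was 0.26. Without set 1 the captured median was 0.15 and without set 3 it was 0.66. The summed intensity was 4666 to 22690 in PV, 3544 to 8739 in NPV and 3598 to 6220 in SC. Acta2, smooth muscle actin, read 13.39, 9.26 and 7.98 in PV, 11.59, 7.42 and 8.55 in NPV and 10.29, 8.16 and 8.35 in SC. Its captured level was 1.70 times the scrape level, with an interval of 0.777 to 3.72 that allows either direction, and its other probes gave 0.27 to 0.63. Myh11, smooth muscle myosin, had set differences of 2.08, 0.03 and 0.04. Actg2, enteric smooth muscle actin and a near-identical relative of Acta2, had 2.97, 0.32 and 0.77 (mean 1.35, SE 0.50, adjusted p = 0.972). All 3 were highest in PV of set 1, and the scrape of set 1 was also above those of the other sets.

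**Figure D4:**
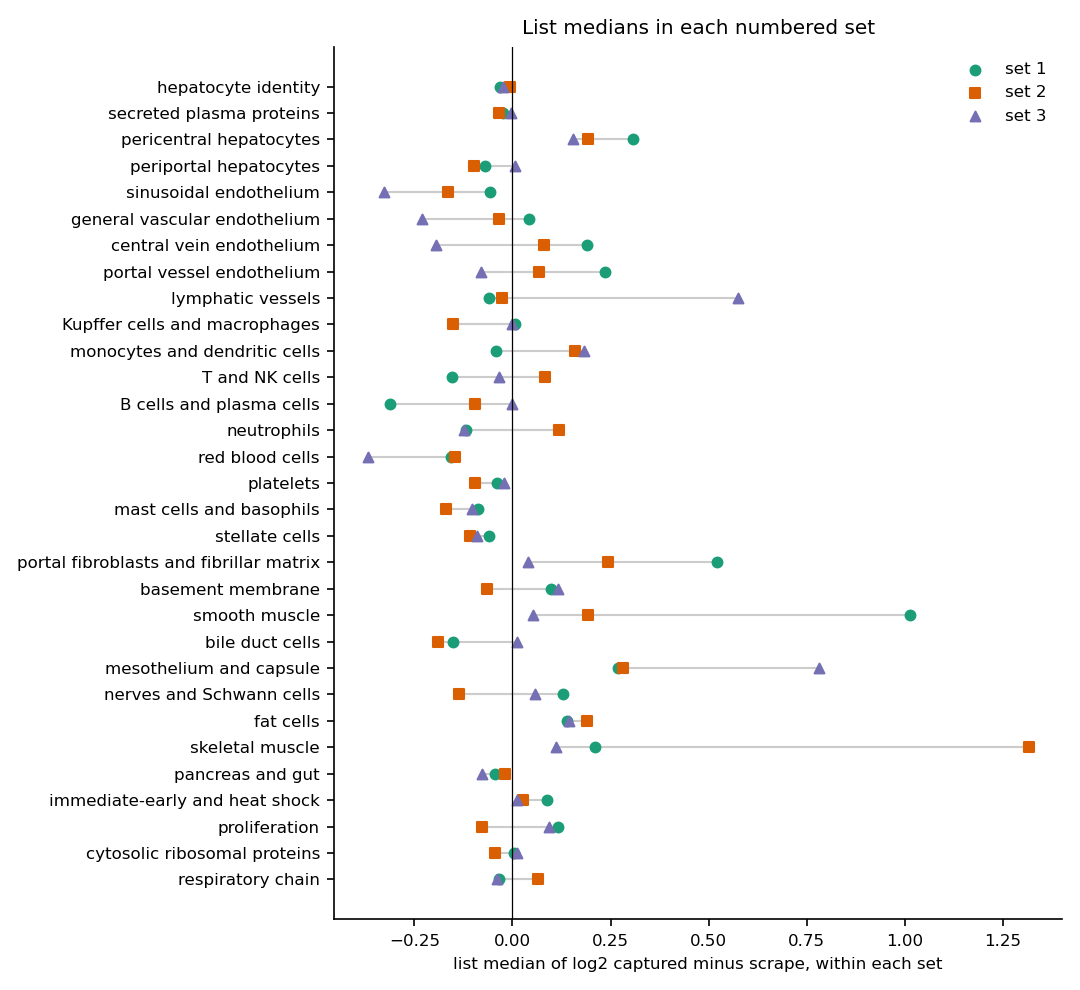
Median log2 difference of captured regions minus scrape over the measured genes of each list (horizontal), shown separately for sets 1, 2 and 3. Smooth muscle stands at 1.01 in set 1, skeletal muscle at 1.32 in set 2 and mesothelium at 0.78 in set 3, while red cells (-0.16, -0.15 and -0.37) lie below 0 in all sets. The skeletal muscle and mesothelium medians rest on 6 measured genes each. Some of these passed the detection filter only through captured arrays, so these medians are no support for a difference.

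The defining bile duct genes, the keratins Krt19 and Krt7 and the adhesion protein Epcam, did not pass the detection filter, so the list rests on other members. Of 29 bile duct genes 18 were measured, 0 passed and the median was -0.14, with -0.15, -0.19 and 0.012 in the sets. Tspan8, a tetraspanin of epithelia, differed by -0.47, -0.73 and -0.26 in the sets (mean -0.49, SE 0.19, adjusted p = 0.972). Its captured and scrape arrays overlapped. Krt23, a keratin, read 6.93, 7.84 and 6.36 in PV, 7.63, 8.27 and 7.49 in NPV and 7.39, 8.22 and 7.31 in SC, so PV was below the scrape and NPV above it in each set. Sox9, a transcription factor of duct cells that is also found in hepatocytes next to them, differed by -0.15 (SE 0.18).

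Several markers of tissues outside the lobule were highest on a single captured array. Of 15 skeletal muscle genes 6 were measured, with a median of 0.68, and 0.21, 1.32 and 0.11 in sets 1 to 3. Myl1, a fast muscle myosin light chain, read 5.84, 10.81 and 4.59 in PV, 5.22, 4.41 and 4.47 in NPV and 4.49, 4.65 and 4.49 in SC. The PV array of set 2 stood far above the rest, and without it the list's median was 0.34. Myl1, Mb and Tcap, 3 of the 6 measured, were each detected on 3 captured arrays and no scrape array, so they passed the detection filter only through captured arrays and the list's median is no support for a difference. Tcap, a sarcomere protein, was highest on the same PV array, at 7.83, and next on PV of set 1, at 6.74. Mylpf, a further fast muscle light chain, was detected on all 9 arrays and also highest on PV of set 2, at 8.52.

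The mesothelium list had 6 of 13 genes measured and a median of 0.51, and 0 of the 6 were detected on all 9 arrays. Upk3b, a uroplakin of mesothelium, read 5.34, 5.70 and 4.71 in PV, 5.31, 4.85 and 6.94 in NPV and 5.13, 4.93 and 4.74 in SC. The NPV array of set 3 was highest for it, and likewise for Msln, the mesothelin precursor, at 5.88 and for Upk1b at 6.46. Without that array the list's median was 0.12. Upk3b, Msln and Upk1b were detected on no scrape array, so they too passed the filter through captured arrays alone. The mesothelium median is therefore no support for a difference either. With no detection filter it was 0.053 over 12 genes, and the skeletal muscle median was 0.70 over 15 genes. Cfd, the adipsin of fat cells, read 10.46, 6.73 and 4.63 in PV, 6.51, 5.05 and 4.56 in NPV and 7.42, 5.44 and 4.49 in SC. It was highest in PV of set 1, and the 8 of 15 fat cell genes measured had a median of 0.15. Ncam1, a neural and muscle adhesion protein, read 8.43, 6.92 and 4.91 in PV, 6.91, 4.84 and 4.62 in NPV and 5.13, 4.60 and 4.63 in SC. It was detected on 3 captured arrays and no scrape array and passed the filter through the former alone (adjusted p = 0.954). Its other probe differed by 0.09. The nerve list (9 of 17 measured) had a median of 0.045, and the pancreas and gut list (5 of 21) of -0.041. None of the genes of these lists passed the test.

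Genes of general cell functions had medians near 0. Immediate-early and heat shock genes (21 of 26 measured) had a median of 0.0064 and proliferation genes (11 of 19) of -0.073. Cytosolic ribosomal genes (26 of 33) had a median of -0.0048 and respiratory chain genes (37 of 40) of 0.0028, and none of these genes passed. Fos, an immediate-early transcription factor, read 8.74, 8.97 and 5.39 in PV, 7.97, 8.70 and 5.11 in NPV and 8.29, 8.56 and 4.99 in SC. Set 3 was lower by more than 2 log2 units in each kind of sample, while captured and scraped tissue overlapped (0.20 higher, SE 0.12).

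Transcripts of the mitochondrial genome gave a mixed picture. mt-Nd5, a subunit of complex I, read 7.82, 7.06 and 5.89 in PV, 7.82, 8.05 and 5.77 in NPV and 8.94, 8.59 and 6.42 in SC. Both captures were below the scrape in every set, by 0.91 on average (SE 0.19, adjusted p = 0.954). mt-Nd6, another subunit of complex I, was 0.56 higher (SE 0.14, adjusted p = 0.954). The mt-Nd5 and mt-Nd6 probes were dim, with scrape means of 7.98 and 8.32. Those of mt-Co2, mt-Cytb, mt-Nd1 and mt-Nd4 had scrape means of 15.21 to 15.97. How well the dim probes report their transcripts was not tested. The other 5 mitochondrial transcripts measured lay between -0.044 and 0.29. Of these, mt-Cytb (15.88 to 16.03) and mt-Nd4 (15.71 to 15.91) were close to the top of the scale, where a difference could hardly be seen. This group was assembled after its values were seen.

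The genes with the smallest p-values included further ones outside the lists. On the lower side were Rps6kb1, the S6 kinase of the mTOR pathway (-0.93, SE 0.19), Cdc37, a kinase co-chaperone (-0.58, SE 0.12), and Dlx3, a homeobox factor (-0.51, SE 0.11). Each was lower on all captured arrays than on all scrape arrays, as were 0.347% of all genes. Rps6kb1 and Cdc37 were detected on 2 and 1 of the 6 captured arrays and on all 3 scrape arrays. Both needed scrape arrays to pass the detection filter, so their separation of arrays is no support for a difference. On the higher side were Tnxb, an extracellular matrix glycoprotein (0.74, SE 0.15), Mrpl9, a mitochondrial ribosomal protein (0.56, SE 0.13), Mpv17, a mitochondrial inner membrane protein (0.51, SE 0.12), and Col11a1, a fibrillar collagen (0.51, SE 0.12). All 7 had an adjusted p of 0.954. Rps6kb1, Cdc37, Dlx3 and Col11a1 were close to the lowest detected levels, 5.05 to 5.27 per array. Their scrape means were 5.81, 5.44, 5.74 and 5.19. Tnxb read 9.73, 9.60 and 7.84 in PV, 8.45, 8.12 and 7.27 in NPV and 8.39, 8.02 and 6.87 in SC, with PV above the scrape by more than NPV in each set. The other probes of Tnxb gave -0.29 to 0.88 and those of Mpv17 gave 0.04 to 0.32. For Mrpl9 the other probe gave 0.43.

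By detection calls, 218 genes were detected on at least 3 captured arrays and on no scrape array, and 3 of them on all 6 captured arrays. The opposite pattern, all 3 scrape arrays and no captured array, was found for 2 genes. With 6 captured arrays, 3 scrape arrays and a filter of 3 detections these counts rest on unlike criteria and are not compared. Detected on all 9 arrays were 10118 genes, and 10066 of these had an interval within 2-fold.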

How the data were processed

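For 45281 probes on 9 arrays, the deposited scanner table gave raw intensity with a detection p-value, per the file headers. The submitters' processing notes name BeadStudio 3. A deposited processed table of linear intensity, made by the authors in a way not given in the sources used here, served as an alternative. Background was corrected with limma's neqc (limma 3.58.1, R 4.3.3; offset 16, quantile normalization, log2), taking negative controls from the detection p-values. Probes detected on at least 3 of 9 arrays were kept (19425), and the brightest probe stood for a gene. Names were updated through RefSeq GRCm38.p6 (29370 probes by accession, 3678 by symbol, 3273 by synonym, 8960 kept the file's name).

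limma was fitted to all 9 arrays with kind of sample and label number as a block (4 residual degrees of freedom), 2-sided, with Benjamini-Hochberg adjustment over 13532 genes. Deviations of same-numbered arrays from their group means correlated at r = 0.581 to 0.885 in all 9 pairs. Set 3 stood apart in every kind of sample, so this does not by itself show that the numbers pair the samples. Named genes were up to 12 per direction past the test, filled up to 5 by the smallest p, the first 3 markers of 31 lists, up to 3 further members of each by p, and Glul. Genes and groups outside this rule (Sox9, Iglv1 and the mitochondrial transcripts without a list) were chosen after their values were seen. The comparison and the lists were chosen with earlier results of these data known. In all, 459 of 645 listed genes were measured. The code was tested on simulated data. The 21 alternatives changed the block, normalization, background correction, offset, detection filter and probe rule, or left out a set or an array. A gene that the naming rule takes is not reported here.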

Additional observations from a re-analysis of the deposited data

Results flagged for a closer look

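For 8 of the named genes the captured regions differed from each other by the test of PV against NPV in the same fit (limma, 43 of 13532 genes called). PV minus SC and NPV minus SC share the scrape arrays, which drop out of PV minus NPV. An effect of capture was therefore not tested here. Glul, the gene that names PV, differed by 2.31 on the log2 scale (SE 0.19, adjusted p = 0.00220), with 1.57 in PV and -0.74 in NPV against SC. Tnfrsf19, a tumour necrosis factor receptor family member, differed by 2.08 (SE 0.14, adjusted p = 0.000880), Gstm3 by 1.36 (SE 0.19, adjusted p = 0.0306), Oat, ornithine aminotransferase, by 1.12 (SE 0.12, adjusted p = 0.00870) and Tbx3, a T-box factor, by 1.35 (SE 0.16, adjusted p = 0.0117). These 5 are on the pericentral list. Cdh13 of the central vein list differed by 1.50 (SE 0.20, adjusted p = 0.0241), Lpl, lipoprotein lipase, by 1.51 (SE 0.18, adjusted p = 0.0150) and Tnxb by 1.11 (SE 0.17, adjusted p = 0.0492). Against SC, Oat was 0.60 in PV and -0.52 in NPV and Cdh13 0.80 and -0.70, with captured means of 0.04 and 0.05. Lpl was 1.00 in PV and -0.51 in NPV, with a captured mean of 0.25.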

How the results depend on the processing

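Under all 21 alternatives 0 genes were higher and 0 lower by limma, with 57 to 606 higher and 86 to 835 lower at an unadjusted p under 0.05. Without the replicate block the counts were 0 and 0 (57 and 86 unadjusted), and with the block applied to set differences only they were 0 and 0 (316 and 294). Leaving out each set or array gave 0 and 0 throughout. The adjusted p of Lck ranged from 0.514 to 1.00 over the alternatives and that of Hbb-b1 from 0.632 to 1.00. Of 651 list medians recomputed, 595 moved by less than the spread between sets and 56 by more. The median of red cell genes stayed below 0 (-0.32 to -0.11), as did that of sinusoidal endothelium (-0.24 to -0.067), and that of smooth muscle above 0 (0.15 to 0.66). Those of Kupffer cells (-0.13 to 0.075), B cells (-0.42 to 0.029) and neutrophils (-0.18 to 0.037) took both signs. Leaving out a scrape array gives the same estimate as leaving out its set. Dim genes are limited by background: differences near the lowest detected level are drawn toward 0.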
